A study of Mus musculus with 2 samples.

Results

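Newly made collagen chains are hydroxylated, folded and checked in the endoplasmic reticulum (ER) before they leave the cell. Prolyl 4-hydroxylase and the prolyl 3-hydroxylase complex modify prolines, lysyl hydroxylases prepare lysines for sugar addition and cross-linking, and chaperones such as the HSP47 protein encoded by *Serpinh1* hold the triple helix until it is exported in COPII-coated carriers. The unfolded protein response (UPR) adjusts the amount of general ER chaperones, and cartilage and dermal cells are both heavy producers of collagen, mainly type II in cartilage and types I and III in skin. Here 44 genes of this machinery were taken by symbol from the RNA-Seq count table of 24421 gene rows. Of these, 41 matched a row exactly, and *Lepre1*, *Leprel1* and *Leprel2* were found under their current symbols *P3h1*, *P3h2* and *P3h3*.

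The data comprised 1 library of primary chondrocytes, released by collagenase from the rib cartilage of newborn mice and used within a few passages, and 1 library of primary dermal fibroblasts from the back skin of newborn mice. No genotype, treatment, strain or sex was given for either library. The counts summed to 18788599 in chondrocytes and 17563724 in dermal fibroblasts, and 13825 genes had at least 20 counts over both libraries and are called tested genes here. Each fold is the ratio of counts scaled by TMM (trimmed mean of M values), and each bracketed interval is the exact 95% Clopper-Pearson interval, which covers counting error only. With 1 library per cell type, no difference could be set against variation between animals or cultures and no p-value was computed. In such bulk samples, fewer cells of a type and less RNA per cell cannot be told apart.

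The markers followed the labels. The 7 chondrocyte markers were over 2-fold higher in chondrocytes, led by *Col2a1* with 1447098 counts against 0, as were 4 markers of hypertrophic chondrocytes, and the 7 fibroblast markers were over 2-fold higher in dermal fibroblasts. The summed counts of the 7 fibroblast markers were 113059 in chondrocytes and 897089 in dermal fibroblasts, with *Col1a1* at 39143 and 322379. Markers of other cell types were also counted. The summed counts of 6 osteoblast markers were 587 in chondrocytes and 17 in dermal fibroblasts, those of 6 skeletal muscle markers 27305 and 21572, and those of 4 keratinocyte markers 117 and 4462. The osteoblast markers ranged from 5 to 349 counts in chondrocytes and from 0 to 13 in dermal fibroblasts, with *Bglap* at 0 in the latter. Muscle markers ranged from 120 to 7784 counts in chondrocytes and from 176 to 7970 in dermal fibroblasts. Of these, *Myod1* (2328 against 496 counts) and *Myog* (3526 against 1728) were over 2-fold higher in chondrocytes. The other 4 lay within 2-fold, with *Actc1* (7288 against 7970) and *Ckm* (120 against 176) higher in dermal fibroblasts. Keratinocyte markers ranged from 1 to 72 and from 108 to 1939 counts. Sums for 4 macrophage markers were 1750 and 2867, and sums for 3 endothelial markers were 208 and 594. Among plasma cell markers, *Jchain* was at 0 in both libraries, *Mzb1* had 3 and 2 counts and *Sdc1* had 2119 and 1739. Of the 4 plasma cell markers listed, 3 had a row. The part of these cells in the values below was not tested.

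All 44 genes passed the filter on low counts, and 37 of them (84.1%) lay within 2-fold between the cell types. The share within 2-fold was 73.9% of all tested genes. It was 77.2% of the 1371 genes at least as abundant as the lower quartile of the 44. Of 141 other genes of the secretory pathway and the UPR, ATF4 targets included, it was 89.4%. The 6 genes over 2-fold higher in chondrocytes were *P3h2*, *Plod2*, *Creb3l2*, *Ero1l*, *P4ha1* and *Fkbp10*, and *Creb3l1* alone was over 2-fold higher in dermal fibroblasts. These counts are 13.6% and 2.27% of the 44 genes, against 10.9% and 15.3% of all tested genes, so that the upward share lay near the background. Among the 1371 abundant genes, the shares were 8.46% and 14.4%. The median log2 fold of the 44 genes was 0.30, against a median of -0.0019 over all tested genes. Of the 44 genes, 34 (77.3%) were higher in chondrocytes, a number that was 30 when scaled by total counts and 37 when scaled by *Actb*. The share higher in chondrocytes was 49.9% of all tested genes, 53.8% of the abundant genes and 70.2% of the 141 other genes, so that the last share lay near that of the 44. With total counts in place of TMM, the median was 0.16 for the 44 genes and -0.14 for all tested genes, and 3 and 2 of the 44 genes were over 2-fold against 9.24% and 17.4% of all tested genes. Since a scaling moves all folds alike, it leaves the distance between both medians as it is. *Canx*, *Ddit3*, *Dnajc3*, *Fkbp14*, *Manf*, *Pdia3* and *Sec31a* changed direction among the 6 scalings, and the other 37 genes did not.

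**Figure D1:**
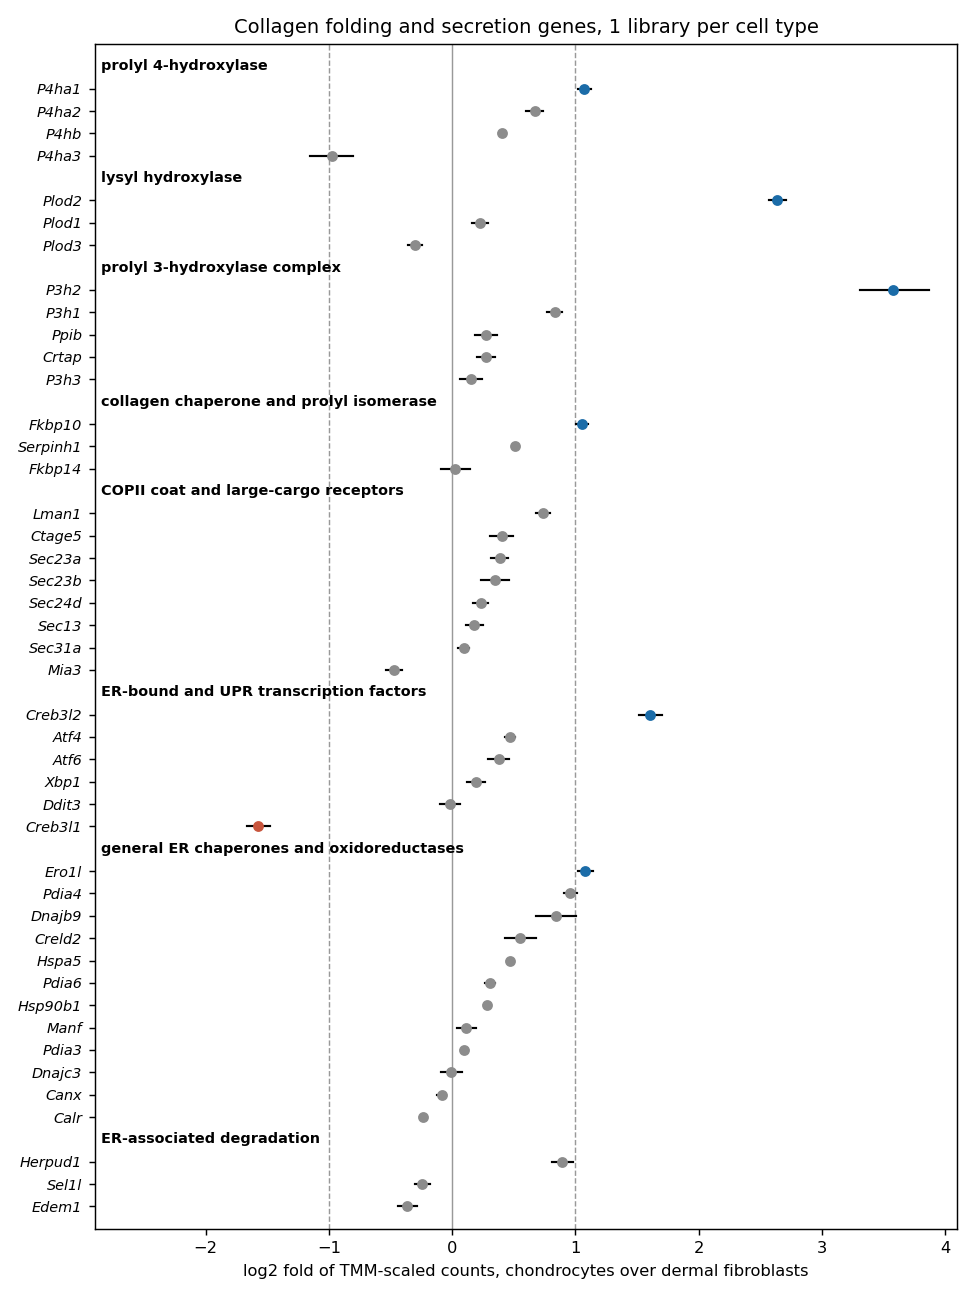
Log2 fold of TMM-scaled counts, chondrocytes over dermal fibroblasts, for the 44 genes in 8 groups. Points are folds from 1 library per cell type, lines are exact 95% counting intervals, and dashed lines mark 2-fold; *P3h2* and *Plod2* lie farthest to the right and *Creb3l1* farthest to the left, while most genes lie between 0 and 1.

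**Figure D2:**
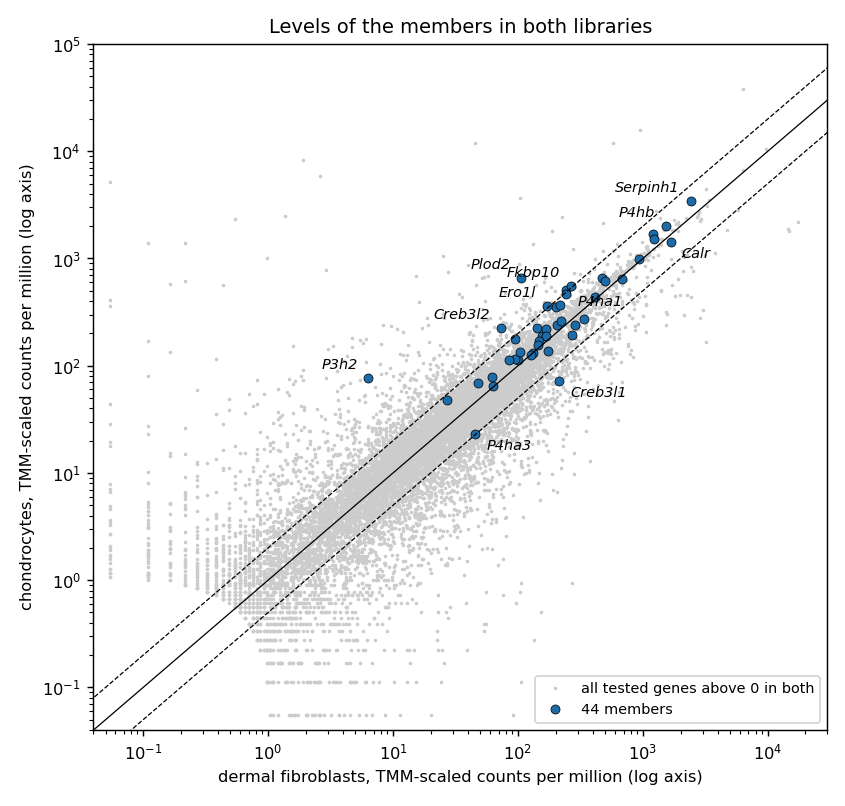
TMM-scaled counts per 1000000 in dermal fibroblasts (x, log axis) and chondrocytes (y, log axis) for the 44 genes (blue) and all tested genes above 0 in both libraries (grey). The solid line marks equal levels and the dashed lines 2-fold; the blue points lie in the upper part of the range, with *Serpinh1* highest in both libraries and *P3h2* lowest in dermal fibroblasts.

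Several promoters of the group carry the element through which the UPR factors ATF6 and XBP1 are known to act, and these stretches are shown because their genes make up most of the abundant chaperones described below. RefSeq promoters (GRCm38.p6, 250 bases before to 50 after the listed start) were found for 37 of the 44 genes. *Plod2*, *P3h2*, *Fkbp10*, *Lman1*, *Creb3l1*, *Atf6* and *Manf* had no entry in the table used here. The ER stress response element, CCAAT and CCACG with a spacer of 9 bases, searched on both strands, was found in 7 of the 37 genes (18.9%) and in 37 of the 27025 genes of the table (0.137%), which include noncoding genes. The related ERSE-II, ATTGG and CCACG with 1 base between them, was found in *Herpud1* and in 0.0444% of the genes. The letters TGACGTGG, the core of an element bound by XBP1, were found in *Sec24d* and *Sec23a* and in 0.714% of the genes. The letters TGATGNAAN of the amino acid response element, to which ATF4 binds, were found in *Herpud1* and in 4.50% of the genes. The stretches below are written 5′ to 3′ on the strand of the gene with the matched letters in capitals, and a match is a description of the sequence and not of binding.
*Hspa5*, chr2:34772010-34772058, plus strand: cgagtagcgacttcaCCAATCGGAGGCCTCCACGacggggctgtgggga
*Hsp90b1*, chr10:86705623-86705671, minus strand: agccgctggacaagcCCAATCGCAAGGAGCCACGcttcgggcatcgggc
*Hsp90b1*, chr10:86705518-86705566, minus strand: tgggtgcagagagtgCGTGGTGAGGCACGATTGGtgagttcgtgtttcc
*Pdia6*, chr12:17266476-17266524, plus strand: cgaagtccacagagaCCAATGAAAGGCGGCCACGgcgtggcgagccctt
*Calr*, chr8:84847060-84847108, minus strand: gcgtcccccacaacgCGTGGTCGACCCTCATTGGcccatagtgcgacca
*Canx*, chr11:50325785-50325833, minus strand: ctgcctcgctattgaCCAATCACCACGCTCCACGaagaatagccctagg
*Dnajc3*, chr14:118937812-118937860, plus strand: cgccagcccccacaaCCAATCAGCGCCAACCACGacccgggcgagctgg
*Creld2*, chr15:88819505-88819553, plus strand: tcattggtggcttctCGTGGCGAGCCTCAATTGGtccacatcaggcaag
*Herpud1* (ERSE-II), chr8:94386362-94386402, plus strand: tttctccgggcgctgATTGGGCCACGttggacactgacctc
*Sec24d* (TGACGTGG), chr3:123267455-123267492, plus strand: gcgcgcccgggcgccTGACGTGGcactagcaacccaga
In *Hsp90b1*, *Calr* and *Creld2* the element, or one of its copies, reads on the opposite strand, so that CCACG and CCAAT appear there as CGTGG and ATTGG. The match in *Sec23a* lies after the listed start and is not printed. The 7 genes with the full element had log2 folds from -0.24 to 0.55 with a median of 0.28, and the other 30 genes with a promoter entry had a median of 0.27.

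Among the prolyl 4-hydroxylases, which stabilize the collagen triple helix, the catalytic subunits differed in direction. *P4ha1* lies on chromosome 10 of GRCm38 (59323197 to 59373304), and its counts were 9185 in chondrocytes against 4491 in dermal fibroblasts. It was 2.10-fold higher in chondrocytes (interval 2.03 to 2.18), and with total counts the fold was 1.91, under the 2-fold threshold. *P4ha2* had 4063 and 2625 counts, a fold of 1.59 (interval 1.51 to 1.67). *P4ha3* was the rarest subunit, with 415 counts in chondrocytes against 840 in dermal fibroblasts. It was higher in dermal fibroblasts by 1.97-fold (interval 1.75 to 2.22), and 2.17-fold higher with total counts. *P4hb*, the shared beta subunit, which is also a protein disulfide isomerase, had 35923 and 27950 counts, the highest level of the group also per length, and a fold of 1.32 (interval 1.30 to 1.34). Within each library, where no scaling between libraries is needed, *P4ha1* made up 67.2% of the alpha subunit counts in chondrocytes and 56.4% in dermal fibroblasts. The share of *P4ha3* was 3.04% in chondrocytes (interval 2.76% to 3.34%) and 10.6% in dermal fibroblasts (interval 9.89% to 11.3%).

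The lysyl hydroxylases showed the widest rearrangement of any enzyme family in the group. *Plod2* (chromosome 9, 92539636 to 92608428), which encodes the enzyme known for hydroxylating lysines of the collagen telopeptides, had 11831 counts in chondrocytes against 1950 in dermal fibroblasts. It was 6.23-fold higher in chondrocytes (interval 5.94 to 6.54). *Plod1*, whose product acts on lysines of the helix, had 4337 and 3815 counts and a fold of 1.17 (interval 1.12 to 1.22). *Plod3*, which encodes a lysyl hydroxylase that also transfers sugars to hydroxylysine, had 4907 and 6212 counts and was higher in dermal fibroblasts by 1.23-fold (interval 1.19 to 1.28). As a share of the counts of all 3 genes, *Plod2* took 16.3% in dermal fibroblasts (interval 15.6% to 16.95%) and 56.1% in chondrocytes (interval 55.5% to 56.8%). *Plod3* took 51.9% of them in dermal fibroblasts and 23.3% in chondrocytes. The most abundant lysyl hydroxylase thus differed between the libraries, by counts and also per length, where *Plod2* took 62.1% in chondrocytes and *Plod3* 57.2% in dermal fibroblasts.

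The prolyl 3-hydroxylases contained the largest fold of the 44 genes. *P3h2* (chromosome 16, 25959284 to 26105813), known for modifying basement membrane collagen, had 1363 counts in chondrocytes against 117 in dermal fibroblasts and was 11.97-fold higher in chondrocytes (interval 9.90 to 14.6). *P3h1*, whose product forms a complex with those of *Crtap* and *Ppib* and modifies fibrillar collagens, had 6380 and 3686 counts and a fold of 1.78 (interval 1.71 to 1.85). *P3h3* had 2010 and 1857 counts, a fold of 1.11 (interval 1.04 to 1.18). *P3h2* held 14.0% of the counts of the 3 hydroxylases in chondrocytes (interval 13.3% to 14.7%) and 2.07% in dermal fibroblasts (interval 1.71% to 2.47%), whereas *P3h1* held 65.4% and 65.1%. The partners of *P3h1* moved little. *Crtap* had 3366 and 2865 counts and a fold of 1.21 (interval 1.15 to 1.27). *Ppib*, the prolyl isomerase cyclophilin B, had 2065 and 1754 counts and a fold of 1.21 (interval 1.13 to 1.29). The span annotated for this gene shares 1456 bases with *Snx22*, which had 301 and 17 counts, and a strand setting of the counting is not given in the sources used here.

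**Figure D3:**
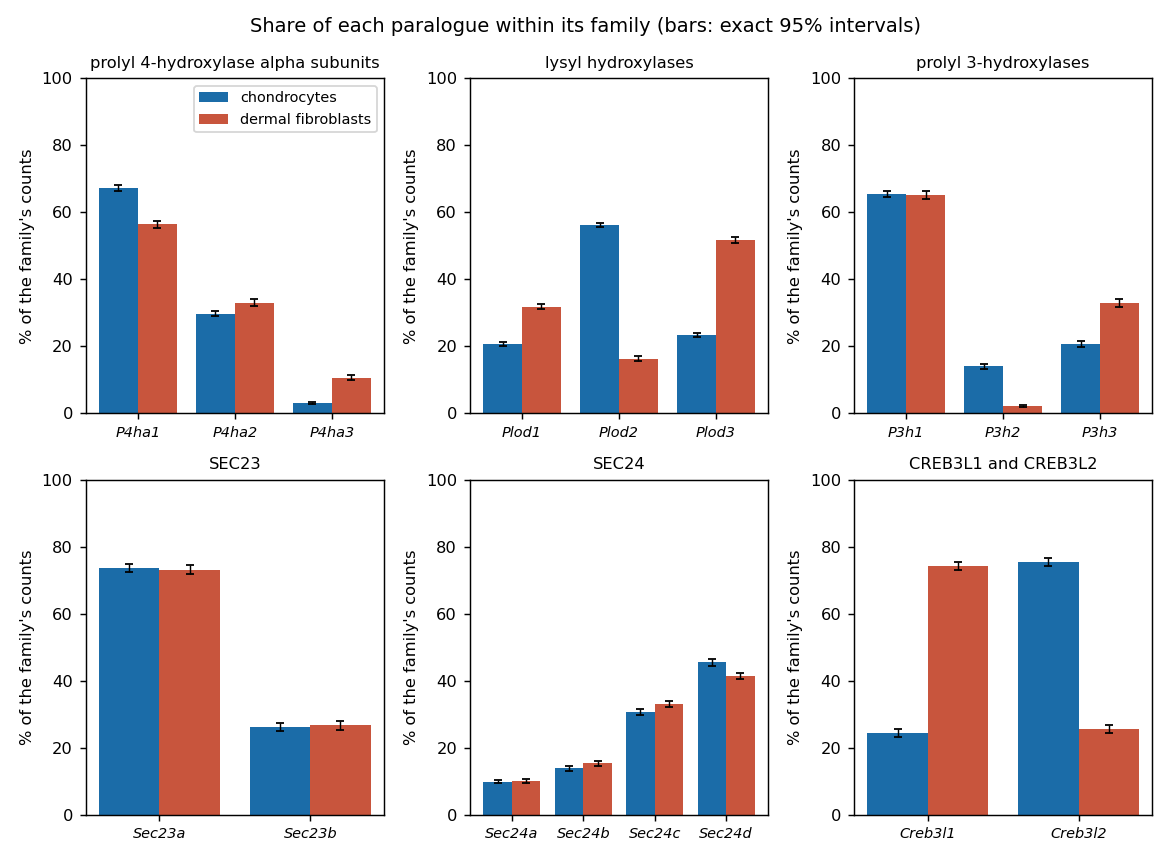
Share of each paralogue in the counts of its family (y, percent) in chondrocytes (blue) and dermal fibroblasts (red), with whiskers for exact 95% intervals. *Plod2* and *Plod3*, and *Creb3l2* and *Creb3l1*, exchange the leading place between the libraries, while the *Sec23a* and *Sec23b* bars are of nearly equal height in both.

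Among the collagen-specific chaperones, *Serpinh1* (chromosome 7, 99345375 to 99353239) had the highest level of all 44 genes, by counts and, for the 43 genes with a length, per length. It had 61409 counts in chondrocytes against 44336 in dermal fibroblasts and a fold of 1.42 (interval 1.41 to 1.44). On a length-scaled level (counts per kilobase of exon, scaled to sum to 1000000 in each library), *Serpinh1* stood at 4317 in chondrocytes and 3229 in dermal fibroblasts and ranked 16 and 31 among all genes with a known length. *Fkbp10* (chromosome 11, 100415694 to 100424840) encodes FKBP65, an ER prolyl isomerase that assists the lysyl hydroxylation of collagen by the *Plod2* enzyme. It had 9820 and 4860 counts and was 2.08-fold higher in chondrocytes (interval 2.005 to 2.15), or 1.89-fold with total counts. Its span shares 2524 bases with *Nt5c3b*, which had 609 and 573 counts. *Fkbp14*, another ER prolyl isomerase, had 1156 and 1168 counts and a fold of 1.02, with an interval from 0.936 to 1.10 that includes equality.

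The 8 genes of ER export all lay within 2-fold, against 73.9% of all tested genes and 77.2% of the 1371 abundant genes. The COPII coat forms at ER exit sites from an inner layer of SEC23 and SEC24 and an outer layer of SEC13 and SEC31. *Sec31a* of the outer layer had 7904 counts in chondrocytes against 7609 in dermal fibroblasts and a fold of 1.07 (interval 1.03 to 1.10). *Sec23a*, which is needed for collagen export in skeletal cells, had 3964 and 3115 counts, a fold of 1.31 (interval 1.25 to 1.37). *Sec23b* had 1414 and 1140 counts and a fold of 1.27 (interval 1.18 to 1.38). The *Sec23a* share of both SEC23 genes was 73.7% in chondrocytes (interval 72.5% to 74.9%) and 73.2% in dermal fibroblasts (interval 71.8% to 74.5%), and these intervals overlap. *Sec24d* had 4692 and 4100 counts, a fold of 1.18 (interval 1.13 to 1.23), and was the leading SEC24 gene in both libraries with 45.6% and 41.5% of the SEC24 counts. *Sec13* had 3412 and 3093 counts and a fold of 1.13 (interval 1.08 to 1.19).

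The receptors that load large cargo moved apart. *Mia3*, which encodes the TANGO1 receptor for procollagen, was the only one of these 8 genes with a higher level in dermal fibroblasts, with 3478 counts in chondrocytes against 4950, a 1.39-fold difference (interval 1.33 to 1.45). Its partner *Ctage5* had 2011 and 1565 counts and was 1.32-fold higher in chondrocytes (interval 1.23 to 1.41). There were 1.73 *Mia3* counts per *Ctage5* count in chondrocytes (interval 1.64 to 1.83) and 3.16 in dermal fibroblasts (interval 2.99 to 3.35), a pair chosen after its values were seen. *Lman1*, a lectin that carries glycoproteins out of the ER, had the largest fold of the group, 1.66 (interval 1.60 to 1.73), with 6531 and 4029 counts.

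The transcription factors of the ER membrane showed opposite differences in a pair of paralogues. *Creb3l2* (chromosome 6, 37327255 to 37442276) encodes BBF2H7, which is cleaved from the ER membrane and is known to activate *Sec23a* in developing cartilage. It had 4014 counts in chondrocytes against 1352 in dermal fibroblasts and was 3.05-fold higher in chondrocytes (interval 2.87 to 3.25). *Creb3l1* (chromosome 2, 91982328 to 92024170) encodes OASIS, which is known to activate *Col1a1* in osteoblasts. It had 1291 and 3945 counts and was higher in dermal fibroblasts by 2.98-fold (interval 2.79 to 3.17). There were 3.11 *Creb3l2* counts per *Creb3l1* count in chondrocytes (interval 2.92 to 3.31) and 0.343 in dermal fibroblasts (interval 0.322 to 0.365). Per length the exchange was less complete, since *Creb3l2* made up 52.6% of the pair in chondrocytes and 10.9% in dermal fibroblasts.

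The factors of the UPR itself differed far less. *Atf4*, the effector of the PERK branch, had the highest level of the 6 factors, per length too, with 11671 and 8665 counts and a fold of 1.38 (interval 1.35 to 1.42). *Atf6* had 2426 and 1919 counts and a fold of 1.30 (interval 1.22 to 1.38). *Xbp1*, the target of IRE1, had 3020 and 2716 counts and a fold of 1.14 (interval 1.08 to 1.203). The counts per gene do not separate the spliced from the unspliced form of its mRNA. *Ddit3*, which encodes the stress factor CHOP, had 2340 and 2438 counts and a fold of 0.986, with an interval from 0.931 to 1.04 that includes equality.

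Of the 12 general ER chaperones and oxidoreductases, 11 lay within 2-fold, against 73.9% of all tested genes and 77.2% of the 1371 abundant genes. *Ero1l* (chromosome 14, 45283087 to 45318572), the oxidase that recharges protein disulfide isomerase and is known to respond to low oxygen, had 6440 counts in chondrocytes against 3131 in dermal fibroblasts. It was 2.11-fold higher in chondrocytes (interval 2.02 to 2.205), and 1.92-fold with total counts. *Pdia4*, a disulfide isomerase, followed at 1.94-fold (interval 1.87 to 2.02) with 8371 and 4423 counts, and was 2.12-fold higher with *Actb* as the scale. *Pdia3*, which works with the lectin chaperones, had 17753 and 17027 counts and a fold of 1.07 (interval 1.05 to 1.09). There were 0.472 *Pdia4* counts per *Pdia3* count in chondrocytes (interval 0.459 to 0.484) and 0.260 in dermal fibroblasts (interval 0.251 to 0.269), again a pair chosen after its values were seen.

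The abundant chaperones *Hspa5*, *Hsp90b1*, *Calr* and *Canx* differed by less than 1.5-fold, in both directions, unlike *Pdia4* above. *Hspa5*, which encodes BiP, the master chaperone and sensor partner of the UPR, had 30088 and 22314 counts and a fold of 1.38 (interval 1.36 to 1.41). *Hsp90b1*, which encodes GRP94, had 26954 and 22756 counts and a fold of 1.22 (interval 1.195 to 1.24). *Calr*, the soluble lectin chaperone, was instead higher in dermal fibroblasts, with 25415 and 30801 counts and a 1.18-fold difference (interval 1.16 to 1.1998). Its membrane-bound relative *Canx* had 11458 and 12471 counts and was 1.06-fold higher there (interval 1.03 to 1.09), or 1.03-fold higher in chondrocytes with *Actb* as the scale. *Dnajb9* and *Creld2* were counted less often, with 867 and 497 counts and with 1248 and 874, and folds of 1.79 (interval 1.60 to 2.005) and 1.47 (interval 1.34 to 1.60). *Pdia6* and *Manf* were at 1.24 and 1.08, and *Dnajc3*, an inhibitor of the PERK branch, was nearest to equality at 0.995 (interval 0.939 to 1.05).

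The genes of ER-associated degradation, which removes misfolded proteins, did not move together. *Herpud1*, a UPR target that assembles the degradation complex, had 3167 counts in chondrocytes against 1753 in dermal fibroblasts and was 1.86-fold higher in chondrocytes (interval 1.75 to 1.97). *Sel1l*, the adaptor of the HRD1 ubiquitin ligase, had 4323 and 5253 counts and was higher in dermal fibroblasts by 1.18-fold (interval 1.14 to 1.23). *Edem1*, a lectin of the same pathway, had 2436 and 3220 counts and was 1.29-fold higher there (interval 1.22 to 1.36). Their summed scaled counts were nearly equal, with a ratio of 0.997.

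Summed over the 44 genes, the counts were 371062 in chondrocytes and 297872 in dermal fibroblasts, which is 19749 and 16960 per 1000000 of all counts, and after TMM scaling the sum was 1.28 times as high in chondrocytes. The ratio of 1.81 for the lysyl hydroxylases rested on *Plod2*, since without it the counts were 9244 and 10027 and the ratio 0.947. The ratio was 1.52 for the prolyl 3-hydroxylase complex, 1.48 for the collagen-specific chaperones and 1.42 for the prolyl 4-hydroxylases. It was 1.21 for the transcription factors and 1.16 each for ER export and for the general chaperones. The collagen alpha chain genes, whose products are among the cargo of this machinery, took 12.2% of the counts in chondrocytes and 7.60% in dermal fibroblasts. Set against the collagen chains within the same library, the 44 genes had 162 counts per 1000 collagen chain counts in chondrocytes and 223 in dermal fibroblasts. The groups differed in this. The general ER chaperones had 63.3 and 96.3, the prolyl 4-hydroxylases 21.7 and 26.9, and the collagen-specific chaperones 31.6 and 37.7. The lysyl hydroxylases, at 9.21 and 8.97, were the only group with the higher value in chondrocytes. Without *Col2a1* the 44 genes had 441 and 223. That gene had 0 counts in dermal fibroblasts, so leaving it out could only raise the chondrocyte value. The main collagen genes of dermal fibroblasts were not left out in turn, so these values do not show how firm the order is.

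Other genes of the secretory pathway and of the UPR, with 16 ATF4 targets among them, were compared in the same way in 7 lists of 141 genes together. Of these, 8 were over 2-fold higher in chondrocytes and 7 in dermal fibroblasts (5.67% and 4.96%), against 10.9% and 15.3% of all tested genes. Within 2-fold lay 126 of them (89.4%), against 73.9% of all tested genes. The median log2 fold was 0.20 over all 141 genes. In the translocon and N-glycosylation list, 26 of 29 genes were higher in chondrocytes, against 49.9% of all tested genes and 70.2% of the 141. The median log2 fold of this list was 0.35 (0.22 with total counts). *Stt3b*, a catalytic subunit of oligosaccharyltransferase, led with 8714 and 4237 counts and a fold of 2.11 (interval 2.04 to 2.19). *Sec63* was lowest at 0.945. In the list of further COPII and ER exit genes, 0 of 26 were over 2-fold in either direction, with folds from 1.89 for *Sec16b* to 0.706 for *Trappc3*.

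The widest range among these lists was found for further genes listed under collagen modification, not all of which encode enzymes. Of these 15 genes, 2 were over 2-fold higher in chondrocytes and 3 in dermal fibroblasts, against 10.9% and 15.3% of all tested genes. *Colgalt2*, a galactosyltransferase that acts on hydroxylysine, had 785 counts in chondrocytes against 15 in dermal fibroblasts and was 53.8-fold higher in chondrocytes (interval 32.4 to 96.5). *Bmp1*, the procollagen C-proteinase, had 2363 and 11232 counts and was higher in dermal fibroblasts by 4.63-fold (interval 4.43 to 4.84). *Colgalt1*, the paralogue of *Colgalt2*, with 3767 and 4130 counts, was named after its values were seen and lay within 2-fold, and *Pcolce*, the enhancer of the C-proteinase, likewise named afterwards, was higher in dermal fibroblasts by 2.83-fold (interval 2.75 to 2.91).

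In a list of 9 UPR sensors, their proteases and related factors, *Ern1*, which encodes IRE1, was 2.36-fold higher in chondrocytes (interval 2.13 to 2.60). It had 1330 and 580 counts. *Creb3* was 0.917-fold, and *Creb3l3*, with 4 and 66 counts, was named after its values were seen. Of 16 ATF4 targets, 2 were over 2-fold higher in chondrocytes and 1 in dermal fibroblasts, against 10.9% and 15.3% of all tested genes. Their folds ran from *Atf3* at 2.85-fold (interval 2.54 to 3.21) to *Ddit4*, which was higher in dermal fibroblasts by 3.005-fold (interval 2.76 to 3.28). The list of 28 further chaperones and disulfide isomerases had a median log2 fold of 0.05. It ranged from *Cdnf*, a relative of *Manf*, at 7.84-fold (168 against 22 counts, interval 5.01 to 12.9) to *Pdia5*, which was higher in dermal fibroblasts by 2.445-fold (interval 2.26 to 2.65). Of 18 further degradation genes, 17 lay within 2-fold, against 73.9% of all tested genes and 89.4% of the 141 other pathway genes. The exception was *Derl3*, 9.86-fold higher in chondrocytes (144 against 15 counts, interval 5.78 to 18.1). *Derl1*, at 0.887, was the lowest of that list.

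**Figure D4:**
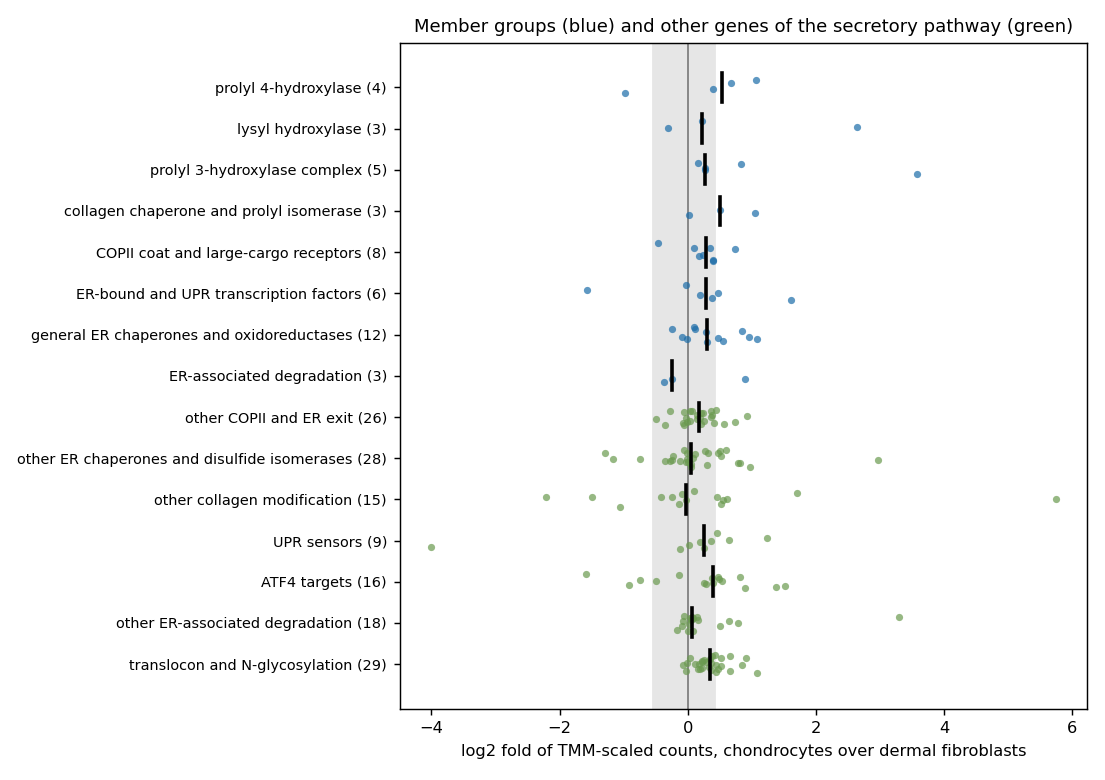
Log2 fold of TMM-scaled counts, chondrocytes over dermal fibroblasts, for every gene of the 8 groups of the 44 genes (blue) and the 7 lists of other pathway genes (green), with the number of genes in brackets. Black bars are list medians, the grey line is the median and the grey band the quartiles of all tested genes; the list medians lie between -0.24 and 0.53, and single genes such as *P3h2* and *Colgalt2* lie far outside the band.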

How the data were processed

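Per the labels, reads of TruSeq stranded mRNA libraries were base-called with CASAVA 1.8.2 and mapped by the authors to mm10 with TopHat2 2.0.13, Bowtie2 2.2.3 and SAMtools 0.1.19. The deposited table holds raw counts as whole numbers, 1 row per symbol. The counting program, its annotation and its strand setting are not given in the sources used here. In 27 rows the symbol had become a date, and these rows were not named.

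TMM factors (0.954 for chondrocytes, 1.05 for dermal fibroblasts) came from edgeR 4.0.16 in R 4.3.3, and folds and intervals from scipy 1.17.1, pandas 2.3.3 and numpy 2.4.6 in Python 3.11.15. For folds, 3 counts was the floor of each library. Genes with a summed count of at least 20 are called tested genes, and a fold over 2 was the threshold. Alternatives used DESeq2 1.42.0 size factors, other scalings, floors, filters and thresholds. The calculation was tested on simulated counts. The reads carry no molecular identifiers and so do not stand for separate molecules, and intervals cover counting error only. Exon lengths of GENCODE vM1, an annotation of the older NCBIM37 build, were found for 43 of the 44 genes (all but *Mia3*) and 97.9% of tested genes. Gene positions and promoters are from RefSeq on GRCm38.p6. For 9 of the 44 genes the annotated span overlaps that of another protein-coding gene.

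The members and lists were chosen with earlier results of these data known. Values were given for each of the 44 genes, and from each other list for the genes with the largest and smallest fold among those with at least 100 counts over both libraries.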

Additional observations from a re-analysis of the deposited data

How the results depend on the processing

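No paired analysis was possible because there was a single library per cell type, and for the same reason no library could be left out. Of the 44 genes, the numbers over 2-fold in either cell type, 6 in chondrocytes and 1 in dermal fibroblasts, became 3 and 2 with total counts, which took *P4ha1*, *Fkbp10* and *Ero1l* under the threshold and *P4ha3* over it. With *Actb* as the scale they became 8 and 1, with *Pdia4* and *Herpud1* (2.02-fold) now over the threshold. There 1745 and 1908 of the 13825 tested genes passed. With a fold over 1.5 the numbers became 12 and 2, where 2653 and 3280 of the 13825 tested genes passed. Within 1.5-fold lay 68.2% of the 44 genes and 57.1% of all tested genes. With a fold over 4 the numbers became 2 and 0 of the 44 genes, where 632 and 866 of the 13825 tested genes passed. The cause with total counts and with *Actb* is the scale itself, since total counts moved each log2 fold by -0.14 relative to TMM and *Actb* moved it by 0.12. The share of all tested genes over 2-fold with total counts was 9.24% and 17.4%. The median log2 fold of the 44 genes was 0.16 with total counts and 0.42 with *Actb*. With only the 41 exact symbols, an alternative chosen after seeing the data, 5 and 1 genes were over 2-fold and the median was 0.28. Over all tested genes, 1504 and 2111 genes were over 2-fold. These became 863 and 1301 with at least 200 counts, and 973 in chondrocytes had a whole interval above 2-fold.

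Without collagen chains and the 10 most abundant genes of either library in the total, the 44 genes had 25142.5 counts per 1000000 in chondrocytes and 19066.9 in dermal fibroblasts. Per 1000 collagen chain counts, the 44 genes had 323 in chondrocytes and 581 in dermal fibroblasts when counts were divided by gene length, and 441 in chondrocytes without *Col2a1*, both alternatives chosen after seeing the data. Of 150 list medians under the alternatives, 5 changed sign, all of them under another scaling. With total counts the further chaperones went to -0.083 and the further degradation genes to -0.0722. The further collagen modification genes, at -0.02, went to 0.0136 with the upper quartile, 0.10 with *Actb* and 0.024 without collagen chains and the most abundant genes. Of 464 folds of 58 named genes, 110 lay outside the main counting interval. The 464 include values under other floors, which lie below every count of these genes and so could not move a fold. The share of 110 in 464 is therefore no measure of how firm the folds are. Without *Plod2*, a choice made after seeing the data, the ratio of summed lysyl hydroxylase counts went from 1.81 to 0.947, and without its gene farthest from equality each of the other 7 groups moved by less than 1.5 times. Depth limits few of the 44 genes, as the lowest count was 117.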
